A study of Saccharomyces cerevisiae with 2 samples.

Results

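Within the annotated spans of protein-coding genes, 90 nucleotides in 58 genes were crosslinked to Dbp2p at the same base in both replicates of an iCLIP experiment in budding yeast. They were chosen by the values of both deposited tables, as the positions listed with the same chromosome, coordinate, strand and gene name in each, under the systematic name of a nuclear protein-coding gene and inside its annotated span. They are 90 of the 652 nucleotides that both tables list and of 26102 listed in either. The span of a gene is called its reading frame here, with any intron included, since the annotation gives no introns, so members in intron-containing genes are not shown to lie in coding sequence. No member lay on a tRNA or rRNA gene, so that exclusion removed none. Because the values that chose the members come from the same 2 libraries, everything below that concerns their presence in both is a description without a test.

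Both libraries come from cells of Strain BTY140, a MATa strain with the alleles his3Δ1, leu2Δ0, met15Δ0 and ura3Δ0, in which DBP2 carries a histidine-biotin (HTBH) affinity tag marked with kanMX6. The cells grew at 30 °C in YPD, a rich glucose medium, until their OD600 was near 1 and were irradiated with UV light before harvest. Both replicates carry the tag, and no untagged, unirradiated or input library was analysed here. The labels number the samples as replicate 1 and replicate 2 and do not describe the cultures behind them, so a spread between them may be technical.

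DBP2 encodes a DEAD-box helicase, an enzyme that uses ATP to unwind short RNA duplexes and remodel RNA-protein complexes. Dbp2p is known from assembly of messenger ribonucleoproteins on nascent transcripts, where it works with the export adaptor Yra1, and from RNA quality control. In iCLIP, UV irradiation creates a bond between protein and RNA where they are in contact, and reverse transcription stops at that site, so the cDNA end marks the bound nucleotide.

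The deposited value of a position is a fraction of its gene's signal, here printed as a percentage, and the values of a gene sum to 100% of its signal. The number of reads behind a value, a gene or a library is therefore unknown. Inside reading frames, replicate 1 listed 4729 positions in 2300 genes and replicate 2 listed 13878 positions in 3514 genes. The members were 1.90% of the former and 0.649% of the latter. At the level of genes, 1811 had a position inside the frame in both replicates, and 58 of them, or 3.20%, held a shared nucleotide.

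The bases around most members are not spelled out in the tables, which list crosslinked nucleotides only, but in 5 places neighbouring listed positions spell 4 or more consecutive bases. They are shown because they are the only sequence context the deposited bases give, read 5′ to 3′ on the strand of the gene, with the member in capitals and sacCer3 coordinates, which are those of R64.
QRI7, chrIV:273644-273653, reverse strand: Aaaaaaaaaa
EGT2, chrXIV:24223-24226, forward strand: caAa
RPS8B, chrV:363373-363376, forward strand: Agaa
RPS8B, chrV:363484-363487, forward strand: gAag
ENO2, chrVIII:452357-452360, forward strand: tGtt

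The run in QRI7, the gene of a mitochondrial tRNA-modifying enzyme, was the longest and began on the last base of the stop codon. In replicate 1 the gene had 2 listed positions, the member (nucleotide 1224 of 1224) and the next base, with 50% of the signal each. In replicate 2 the 10 adenines held 98.3% of the signal of the gene, led by the member with 40.8%. The following adenines had 13.2%, 12.5%, 5.57%, 8.36%, 7.32%, 3.83%, 2.44%, 2.09% and 2.09%. The signal of replicate 2 was thus highest at the base nearest the reading frame and lowest at the far end of the run. Both replicates placed their strongest nucleotide at the stop codon, tied with its neighbour in replicate 1.

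In the remaining runs the member was not the strongest listed base in replicate 2 except in EGT2, a cell wall protein gene of cell separation. There the capital A held 6.67% of the signal in replicate 1 and 5.66% in replicate 2, and the adenine before it held 13.3% in replicate 1 only. In RPS8B, for a small-subunit ribosomal protein, the first member had 50% and 3.20%, and in replicate 2 the adenine 3 bases further carried 16.8%.

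Adenine was the most frequent base among the members. Of the 90, 56 were A (62.2%, exact 95% binomial interval 51.4 to 72.2), 22 were T (24.4%, 16 to 34.6), 8 were G (8.89%, 3.92 to 16.8) and 4 were C (4.44%, 1.22 to 11.0). The intervals cover counting error only and treat the nucleotides as separate, although several share a gene. Adenine was also the most frequent base of all reading frame positions, with 50.5% of 4729 in replicate 1 and 39.1% of 13878 in replicate 2. In the same 58 genes, positions that were not shared were A in 45.5% of 352 cases in replicate 1 and 36.7% of 1384 in replicate 2. The share among members lay above all 4 of these values. A base common in both replicates has more occasions to be listed in both, and the part of this in the share was not tested. T, the base of uridine in RNA, was 24.4% among members against 28.4% and 28.3% of all positions. Without genes with close copies, left out by name, T was 36% of the members. Without genes that share places with another gene it was 30.2%, both above all positions. In the same settings A was 56% and 60.5% of the members. Cytosine was 4.44% against 8.10% and 15.3%, and the replicates thus differed from each other in base composition, replicate 1 having more A and less C. No base composition of the transcripts was used here, so these shares are not preferences.

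**Figure D1:**
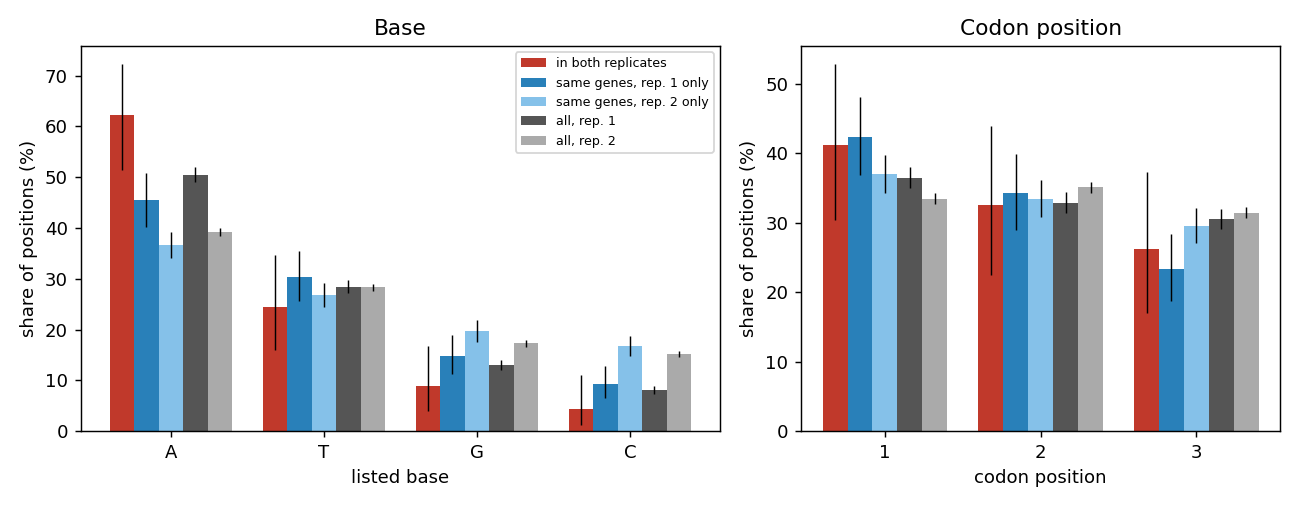
Share of positions in percent by listed base (left) and by codon position (right), for the 90 nucleotides in both replicates (80 for codon position), for positions of the same genes listed in 1 replicate and not shared, and for all reading frame positions of each replicate. Bars are shares and lines exact 95% binomial intervals; the bar for A is at 62.2% among shared nucleotides and at 39.1% to 50.5% among all positions.

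Adenine was the most frequent base in each kind of gene. It was 64.2% of the 53 members in genes with at least 5 listed positions in each replicate (exact interval 49.8 to 76.9). In other genes it was 59.5% of 37 (42.1 to 75.2). In genes of glycolysis and fermentation 20 of 30 were A (47.2 to 82.7), and outside them 36 of 60 (46.5 to 72.4). Each interval lay above the 39.1% of all positions of replicate 2 but included the 50.5% of replicate 1. A higher share than in replicate 1 was thus not resolved within any single kind of gene.

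Codon position was taken where the annotated span was treated as an uninterrupted reading frame. The annotation used gives no introns. Ribosomal protein genes, genes on a hand-written list of intron-containing genes and spans that are not a multiple of 3 were therefore left out. This removed 10 members in 7 genes. The list is not complete, so a span that was kept may still hold an intron. Of the other 80 members, 33 lay at the first base of a codon (41.3%, exact interval 30.4 to 52.8), 26 at the second (32.5%, 22.4 to 43.9) and 21 at the third (26.3%, 17 to 37.3). Over all positions the shares were 36.5%, 32.9% and 30.6% in replicate 1 and 33.5%, 35.1% and 31.4% in replicate 2. All of these lie within the members' intervals, so no difference in codon position was detectable with 80 nucleotides. Adenine made up 24 of the 33 members at first bases, 16 of 26 at second and 9 of 21 at the third. For all positions of replicate 1 these shares of A were 55.7%, 50.7% and 43.2%, and they fell in the same order.

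Members lay in every part of the gene span. Counting from the start, 5 equal parts of the genes held 15, 19, 19, 17 and 20 members. The median place was 52.9% of the way along the gene, against 45.8% for all positions of replicate 1 and 49.5% for replicate 2. The first 100 nt held 4 members (4.44%, exact interval 1.22 to 11.0), against 9.83% and 7.96% of all positions. The last 100 nt held 13 (14.4%, exact interval 7.92 to 23.4), against 7.17% and 7.35%. The lower bound lies just above both values, but the interval treats members as separate. A93 of CUP1-1, a gene of 186 nt, counts at both ends. A947 counts in TDH2 and again in its close copy TDH3. No excess at gene ends is therefore concluded. The last of the 5 parts held 22.2% of members, with an interval of 14.1 to 32.2 that includes the share of all positions in each replicate.

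A member in the first codon occurred once and in the last codon 2 times. In TAL1, the transaldolase of the pentose phosphate pathway (chromosome XII), it was the G of the start codon at coordinate 837355, with 33.3% of the signal in replicate 1 and 6.08% in replicate 2. In the last codon lay the QRI7 adenine shown above and the last A of ENO2 at coordinate 452640. RPL7A and DIB1, for a ribosomal protein and a spliceosomal protein, had members 8 and 6 nt before their last base.

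Most genes had 1 member, and a few had several. Of the 58, 44 had 1 shared nucleotide, 6 had 2, 3 had 3, 3 had 4, 1 had 5 and 1 had 8. The 8 genes with 3 or more held 34 of the 90 members (37.8%), and 23 of those 34 were A. The same 8 genes held 4.27% of all reading frame positions in replicate 1 and 6.24% in replicate 2. All 8 encode glycolytic or fermentative enzymes or the elongation factor eEF1A.

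**Figure D2:**
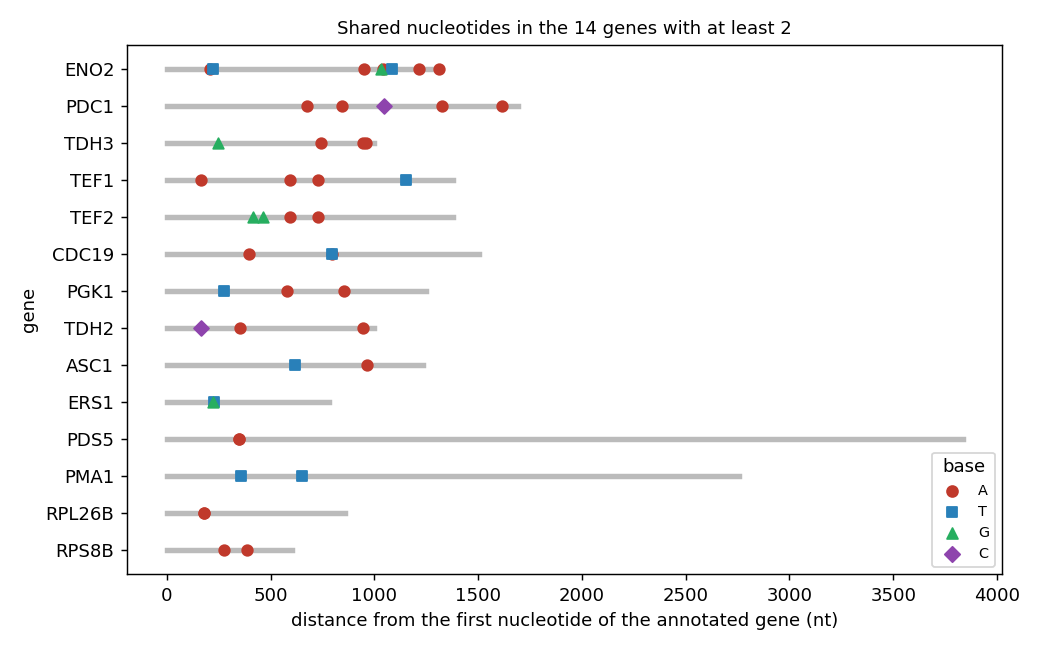
Place of each shared nucleotide in the 14 genes with at least 2 of them, as distance in nt from the first base of the annotated gene (grey line, intron included where there is 1), with colour and shape for the base. ENO2 holds 8 and PDC1 5 along their length, while the pairs of ERS1, PDS5 and RPL26B lie within 3 nt.

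ENO2, the main enolase of glycolysis (chromosome VIII, 451327 to 452640), had the most. It listed 35 positions in replicate 1 and 101 in replicate 2, of which 30 and 92 lay inside the frame. Its shared bases were A208, T222, A950, G1032, A1042, T1087, A1214 and A1314, numbered from the first base of the gene. A1042 was the strongest of them in replicate 1, with 5.17% of the signal, and had 3.47% in replicate 2. A208 had 1.72% and 4.57%, and was the strongest of the 8 in replicate 2. G1032 had 1.72% and 0.914%. The other 5 had 1.72% in replicate 1 and 0.183% in replicate 2, the lowest value of the gene in either library. Together the 8 carried 17.2% of the signal of ENO2 in replicate 1 and 9.87% in replicate 2, where they were 22.9% and 7.92% of its listed positions.

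PDC1, the main pyruvate decarboxylase of fermentation (chromosome XII, 232390 to 234081), had 42 and 135 listed positions and 5 shared. A1324 was the strongest nucleotide of the gene in replicate 1, with 12.1% of the signal, and had 1.48% in replicate 2. A1615 had 1.10% and 3.08%, A844 1.10% and 2.44%, and A674 2.20% and 1.91%. The only shared base of PDC1 that was not an adenine, C1049, had 1.10% and 0.212%. The order of the 5 therefore differed between the replicates. PDC5, a second pyruvate decarboxylase gene, shared C860 with 10% and 4.76%.

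PGK1, phosphoglycerate kinase (chromosome III, 137746 to 138996), shared 3 of its 25 and 98 positions. A581 held 6.98% of the signal in replicate 1 and 8.18% in replicate 2, where it was the strongest nucleotide of the gene and 8.02 times the mean of its listed positions. A856 had 2.33% and 2.78%, and T275 2.33% and 0.463%. For A581 and A856 the replicates gave values of similar size. CDC19, pyruvate kinase (chromosome I, 71786 to 73288), shared A397, T795 and A797, each with 1.79% in replicate 1 and with 0.274%, 0.137% and 0.137% in replicate 2.

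Genes of glyceraldehyde-3-phosphate dehydrogenase, the enzyme before PGK1 in glycolysis, shared nucleotides in all 3 copies. TDH3 (chromosome VII, 882812 to 883810) had G249, A745, A947 and A961, with 1.92%, 1.92%, 7.69% and 1.92% in replicate 1 and 0.586%, 1.29%, 0.117% and 0.352% in replicate 2. TDH2 (chromosome X, 453683 to 454681) had C164, A355 and A947, each with 3.33% in replicate 1 and with 0.800%, 2% and 1.20% in replicate 2. TDH1 had T580, the strongest of the gene in replicate 1 with 18.2%, and 0.575% in replicate 2. The strongest shared base of TDH3 in replicate 1 was thus its weakest in replicate 2.

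TEF1 and TEF2 encode eEF1A, which brings aminoacyl-tRNA to the ribosome. TEF1 (chromosome XVI, 700594 to 701970), with 22 and 170 listed positions, had A163, A595, A729 and T1153, each with 3.45% in replicate 1 and with 2.15%, 0.538%, 2.28% and 0.134% in replicate 2. TEF2 (chromosome II, 477671 to 479047), with 24 and 156, had G417, G462, A595 and A729. A595 had 7.14% in replicate 1 and the other bases 3.57%, while in replicate 2 A729 had 3.61% and the others 0.301%. A729 led the shared bases of both genes in replicate 2.

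Several of these genes are near-identical copies, and the deposited positions do not say how reads that fit both copies were assigned. Among the members, 4 nucleotides occurred at the same number with the same base in both genes of a pair: A595 and A729 of TEF1 and TEF2, A947 of TDH2 and TDH3, and A1042 of ENO1 and ENO2. Of the 25 members in TEF1, TEF2, ENO1, ENO2, TDH2, TDH3 and EFT1, the same nucleotide of the copy was listed for 9 in replicate 1, for 14 in replicate 2 and for 8 in both. In ENO2 it was listed for A1042 and for none of the other 7. Assignment between copies is uncertain for the nucleotides listed in both genes. Listing in only 1 of the genes does not settle it either, since the treatment of reads that fit both is unknown. ENO1, the second enolase gene (chromosome VII, 1000927 to 1002240), held 11.5% and 16.9% of its signal at A1042, where it was the strongest nucleotide in replicate 2.

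Read by gene group, the members lay most often in glycolysis and fermentation. Of 21 such genes 20 were listed inside the frame in both replicates, and 10 of the 20 had a shared nucleotide, against 3.20% of all genes listed in both. Their 30 members are 33.3% of all members, while the group held 6.34% of the reading frame positions of replicate 1 and 6.61% of those of replicate 2. Shared nucleotides were 10% of the group's positions in replicate 1 and 3.27% in replicate 2. Genes with more listed positions have more occasions for a shared one, and the part of this in the count was not tested. PFK1, a subunit of phosphofructokinase, added A89 with 20% and 1.25%.

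In the other groups the counts were small. Translation factors had members in 3 of 25 genes listed in both, TEF1, TEF2 and EFT1, the last for the elongation factor eEF2, whose A772 had 7.69% and 0.356%. Ribosomal proteins had members in 4 of 118, a share of 3.39%, close to the 3.20% of all genes. They were RPL26B, RPS8B, RPL21A and RPL7A. In RPL21A, G498 was the strongest base in replicate 2 with 27.4% and had 12.5% in replicate 1. The cell wall and plasma membrane group had 2 of 26, PMA1 and GAS1. PMA1, the proton pump, shared T356 and T654, with 2.08% each in replicate 1 and 0.178% and 0.357% in replicate 2. GAS1, a cell wall glucanosyltransferase, had A1576 with 12.5% and 13.2%. In replicate 1 all 8 listed positions of GAS1 had that same value. Replicate 2 listed 10, and A1576 was not the strongest of them, so the similar percentages are no sign of a shared peak.

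Groups of RNA and protein metabolism had 1 gene each. These were SSB2 among 18 chaperone genes, DBP2 among 13 of mRNP assembly and export, NOP58 among 23 of ribosome biogenesis and LEU1 among 15 of amino acid and one-carbon metabolism. NOP58, a core protein of box C/D snoRNPs, had T922 with 90.9% in replicate 1 and 2.56% in replicate 2. The shares of these 4 groups were 5.56%, 7.69%, 4.35% and 6.67%, against 3.20% of all genes listed in both. None was found among 5 histone genes, 10 of oxidative phosphorylation and 12 of fatty acid and sterol synthesis. In groups this small, a count of 0 or 1 cannot be told apart from the share of all genes. Outside these lists 35 of 1526 genes, or 2.29%, had a member.

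**Figure D3:**
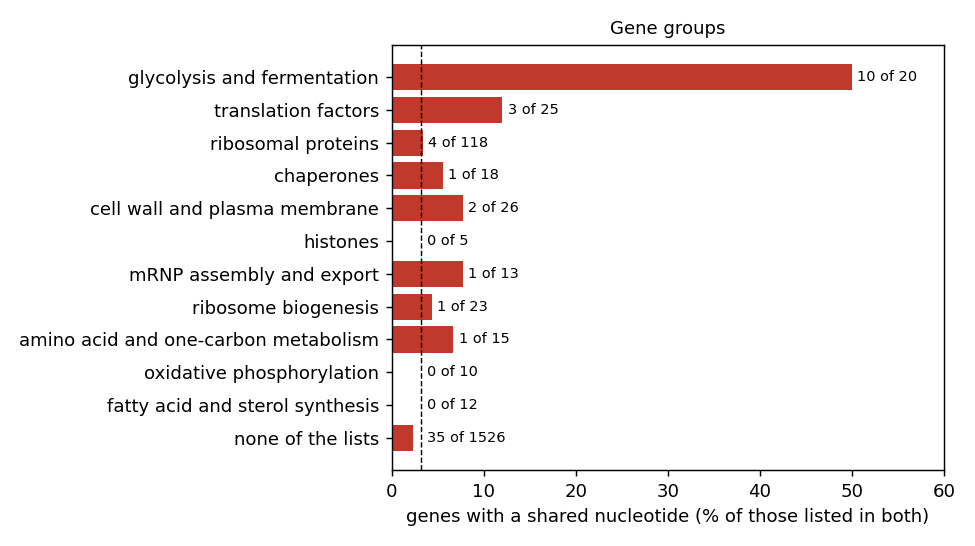
Percentage of the genes listed inside the frame in both replicates that had a shared nucleotide, by gene group, with the numbers beside the bars and a dashed line at the 3.20% of all such genes. Glycolysis and fermentation reached 50% (10 of 20), and 3 groups were at 0.

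DBP2 itself (chromosome XIV, 413639 to 416281) had 1 member, T1418 at coordinate 415056. It held 10% of the signal in replicate 1, where all 10 listed positions of the gene had the same value, and 5.88% in replicate 2, the lowest value of its 9. The gene holds a long intron whose bounds the annotation used here does not give, so the base was assigned to neither exon nor intron.

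The number of genes with a shared nucleotide followed the number of listed positions. Of the 10 genes with at least 20 reading frame positions in each replicate, 8 had a member. Of 25 with at least 10 there were 14, and of 122 with at least 5 there were 23. Among 1689 genes with fewer than 5 in either replicate, 35 had one (2.07%). The 2 densely covered genes without a shared base were ADH1, the main alcohol dehydrogenase of fermentation, with 29 and 45 positions inside the frame, and YEF3, the elongation factor eEF3, with 21 and 53. FBA1, the aldolase of glycolysis, had 18 and 70 and also shared none. These 3 were named after their values were seen.

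Shared nucleotides ranged from the weakest to the strongest of their gene. Over the 90, the percentage of the gene's signal ran from 1.10% to 100% with a median of 11.8% in replicate 1, and from 0.117% to 100% with a median of 3.34% in replicate 2. Set against the mean listed position of the gene, 14 were above it, 26 at it and 50 below it in replicate 1, and 26 were above, 13 at and 51 below it in replicate 2. For all reading frame positions the shares above, at and below the mean were 11.7%, 57.9% and 30.5% in replicate 1 and 19.1%, 29.2% and 51.7% in replicate 2. The members above the mean were 15.6% and 28.9%. Ties included, the lowest value of the gene was found at 66 members in replicate 1 (73.3%, against 65.7% of all positions) and at 39 in replicate 2 (43.3%, against 53.8%). The strongest value was found at 35 members in replicate 1 (38.9%, against 68.7%) and at 26 in replicate 2 (28.9%, against 38.6%). A gene whose positions all have 1 value counts under both, and sparsely listed genes often do. Members lie in more densely listed genes, with a median of 9.5 listed positions in replicate 1, against 3 over all its reading frame positions. The part of that in these shares was not tested, so they do not show that members are weak sites.

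Densely and sparsely listed genes are given apart. In the 24 genes with at least 5 positions in each replicate, the 53 members had a median of 3.45% of the signal in replicate 1 and 0.847% in replicate 2, and 43 of the 53 had the higher percentage in replicate 1. Replicate 2 lists more positions in most of these genes, and the part of that in the percentages was not tested. None of the 53 was the strongest of its gene in both replicates. A1324 of PDC1 and T580 of TDH1 were strongest without a tie in replicate 1, and A1042 of ENO1, A581 of PGK1 and G498 of RPL21A in replicate 2. Across the 53, the value relative to the gene's mean position had Spearman's rho = 0.18 between the replicates, a description over nucleotides that share genes and libraries.

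**Figure D4:**
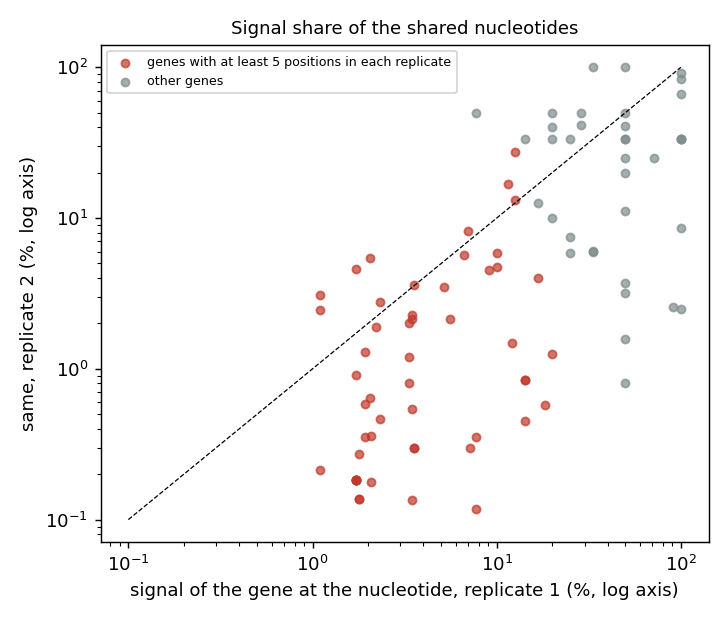
Percentage of the gene's signal at each of the 90 shared nucleotides in replicate 1 (x, log axis) and replicate 2 (y, log axis), in red for the 53 in genes with at least 5 listed positions in each replicate and grey for the other 37. The dashed line marks equal values; 69 nucleotides lie below it and 20 above.

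In the other 34 genes the 37 members held a median of 50% and 33.3% of the signal, as few positions share it. The strongest position was the same in both replicates for 17 of them, and for 3 without a tie. YSW1 had C1348 as its only position in replicate 1 and with 90.9% in replicate 2. NSE3, a subunit of the Smc5-Smc6 complex, had T551 with 100% and 66.7%. CUP1-1, a metallothionein gene, had A93 with 100% and 83.3%. These genes list 1 position in replicate 1 and 2 in replicate 2, so that the agreement rests on few positions. CUP1-1 is also 1 of several repeated copies, and its base lies within the coordinates of the annotated non-coding RNA gene RUF5-1, the only member on such a gene. That overlap was taken without regard to strand, so it does not place the crosslink in the RUF5-1 RNA.

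At least 40% of the signal in both replicates was also reached by TRM13, a tRNA methyltransferase gene, with A1180 at 50% and 50%, by DIB1 with T426 at 50% and 100%, and by QRI7. TRM13 listed only 2 positions of equal value in each replicate. DIB1 listed 2 of equal value in replicate 1 and 1 in replicate 2, so these percentages follow from the number of listed positions. Members lay in adjacent or nearly adjacent pairs in 4 genes. ERS1, with 4 and 3 listed positions, shared G225 and T226, which held 57.1% of its signal in replicate 1 and 91.7% in replicate 2. PDS5, a cohesin-associated factor, shared A347 and A349 with 64.3% and 66.7%. It listed 7 positions in replicate 1 and 3 of equal value in replicate 2. CDC19 had T795 and A797, and RPL26B had A178 and A181, with 14.3% each in replicate 1 and 0.847% each in replicate 2. In no gene did 3 or more shared bases lie within gaps of 2 nt.

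Further members in densely listed genes included ACT1, actin, with A1159 at 5.56% and 2.15%, and ASC1, the ribosome-bound RACK1 protein, with T616 at 2.04% and 5.47% and A964 at 2.04% and 0.643%. FRA1 shared T1259 with 16.7% and 4%, and RPL7A had A1654 with 9.09% and 4.55%. The remaining sparsely listed genes encode proteins of many kinds, among them the kinase TEL1, the TFIID subunit TAF2, the nuclear basket protein MLP2, the phosphatase regulator REG1, the RNA-binding protein PUF2 and the sodium-proton antiporter NHA1. Their shared bases held 20% and 10% in TEL1, 25% and 5.88% in TAF2, 50% and 11.1% in MLP2, 50% and 1.59% in REG1, 33.3% and 100% in PUF2, and 20% and 40% in NHA1. PUF2 listed 3 positions of equal value in replicate 1 and 1 in replicate 2. The listed positions of MLP2 had equal values within each replicate.

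In 5 further genes the member was the only listed position of replicate 1. Their shares in replicate 2 were 33.3% for G718 of AIM9, A1016 of EPO1 and T2818 of UFD2, a ubiquitin chain elongation factor. T120 of THI4, a thiamine synthesis gene, had 8.57%, and A668 of UTP5, of the small-subunit processome, had 2.50%. A complete share in replicate 1 thus stood beside values from 2.50% to 33.3% in replicate 2.

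Higher values in replicate 2 were seen in 4 of the remaining genes. A1849 of CHO2, of phosphatidylcholine synthesis, had 20% and 50%, and A547 of the mannoprotein gene SRL1 had 7.69% and 50%. A3768 of OSH2, an oxysterol-binding protein homologue, had 20% and 33.3%, and A686 of YHR131C had 25% and 33.3%. CHO2 listed 5 positions of equal value in replicate 1 and 2 of equal value in replicate 2. SRL1 listed 9 and 2, OSH2 3 and 5, and YHR131C 3 and 3. In replicate 2 the positions of SRL1, and those of YHR131C, were also of equal value. A gene with few listed positions has high shares by construction. All 4 of these bases were adenines, the base of 62.2% of all members. Members with higher values in replicate 2 that are described elsewhere included A, T and G.

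The last 9 genes had the higher value in replicate 1. T333 of VBA1, a vacuolar permease gene, had 71.4% and 25%, T1268 of AAN1 50% and 25%, A1316 of YPR003C 50% and 33.3% and A860 of PRY3 50% and 20%. A4484 of YBT1, a vacuolar ABC transporter, had 50% and 3.70%. LEU1, of leucine synthesis, had A219 with 33.3% and 5.95%, and LAT1, of pyruvate dehydrogenase, had T14 with 25% and 7.5%. For A2895 of SPO71, of sporulation, the values were 16.7% and 12.5%. The chaperone SSB2 had A946 with 14.3% and 0.452%.

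Nucleotides just outside the rule were those that the replicates listed a few bases apart. At a distance of 0 there were 90 pairs, which the rule fixed. At each distance from 1 to 10 nt in either direction there were 34 to 52 pairs with a median of 40.5, and 48 and 52 at 1 nt upstream and downstream. The 52 pairs at 1 nt downstream were level with the highest of the 20 distances outside the rule, and the 48 at 1 nt upstream were above their median.

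**Figure D5:**
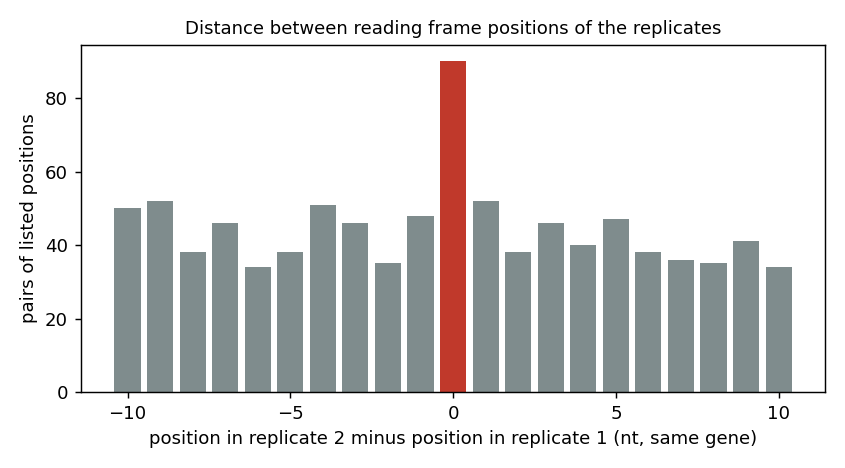
Number of pairs of reading frame positions of the same gene by their distance in nt, replicate 2 minus replicate 1, along the gene. The red bar holds the 90 pairs at the same nucleotide and the grey bars hold 34 to 52 pairs each.

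Other listed positions stood near many members. In replicate 1 a neighbour within 5 nt was listed for 19 of 90 (21.1%), against 11.9% of the 4639 reading frame positions that were not shared. In replicate 2 it was 61 of 90 (67.8%), against 52.6% of 13788. Directly next to the base, a neighbour was listed for 12 members (13.3%, against 6.36%) in replicate 1 and for 29 (32.2%, against 31.8%) in replicate 2. Members lie in more densely listed genes, and the part of that in these shares was not tested.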

How the data were processed

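The 2 samples are iCLIP libraries of tagged Dbp2p. The authors deposited, per replicate, a fraction of each gene's signal at each listed position, with the base. Tested on the tables, values sum to 1 within 1e-06 in all 2787 names of replicate 1 and all 3873 of replicate 2. The submitters' processing notes name CASAVA, TopHat and the build sacCer3 with no version or role. Filters, collapsing of repeated cDNAs, treatment of reads with several mapping places and any 1-base shift of the position are not given in the sources used here. Depth is unknown, and no count was inferred.

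Systematic names were matched to a RefSeq gene table of assembly R64, which shares coordinates with sacCer3; it gives neither introns nor untranslated regions. All 17, 5 and 6 bases listed at start codon positions 1, 2 and 3 in replicate 1, and all 16, 10 and 4 in replicate 2, were those of ATG. Positions are numbered from 1 at the first base of the gene. No statistical test was made, since the design has 1 group of 2 samples and the members were chosen by the measured lists. Intervals are exact (Clopper-Pearson, 95%) and cover counting error only. The code that selects members was run on simulated tables with planted shared positions, as a check of the code only. Members and gene lists were chosen with earlier results of these data known. Genes named follow a rule: those with 3 or more members, the 12 highest lower values in genes with 5 or more positions in each replicate, start and stop codons, close runs, DBP2, up to 3 genes per list and members on non-coding RNA genes; others were named after their values were seen. Alternatives varied the matching distance, genes and values. Computation used Python 3.11.15, numpy 2.4.6, pandas 2.3.3, scipy 1.17.1 and matplotlib 3.10.9.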

Additional observations from a re-analysis of the deposited data

Results flagged for a closer look

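Both replicates also listed 142 shared nucleotides under protein-coding names but outside the annotated span of the gene, a signal in positions that the comparisons above do not use. A further 21 shared nucleotides stood under 2 systematic names that match no protein-coding gene of the annotation used. No control library was analysed here against which either number could be set.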

How the results depend on the processing

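Of 111 values recomputed for 10 results, 89 stayed within the interval, the spread between replicates or 1.5 times the count, and 22 did not. The 90 shared nucleotides became 152 within 1 nt and 280 within 5 nt, in 88 and 157 genes in place of 58. They became 32 in 29 genes without each gene's lowest value (genes whose positions all have 1 value kept), 53 in 24 genes with at least 5 positions in each replicate, 43 without genes sharing 3 or more places with another gene, and 50 without close copies by name. The place-sharing criterion removes densely listed genes whether or not they are copies. The share of A was 47.9% within 5 nt, and 39.1% to 50.5% over all positions when either replicate was left out. Without close copies by name T was 36.0%, and A was 56%, which stayed within its interval. The median percentage of gene signal, 7.57% as a mean of both replicates, was 30.6% without place-sharing genes, 36.3% without lowest values, 19.8% with each gene counted once and 26.8% without close copies. The share strongest in both replicates, 18.9%, was 39.5%, 53.1% and 32.0% without place-sharing genes, lowest values and close copies, and 0% in genes with at least 5 positions in each. Leaving out lowest values removes no nucleotide that is strongest in both, so the rise to 53.1% follows from that setting. The cause of the other changes was not tested. Alternatives for A and for copies by name were chosen after seeing the data. No paired analysis was possible because there is 1 group. Leaving out a replicate leaves no shared nucleotide to count. Depth is unknown, and copies, unknown filters and a possible 1-base shift limit base and codon statements.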
